A study of Tuber borchii with 4 samples.

Results

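A set of 68 gene models of the white truffle *Tuber borchii*, out of 12346 counted, had higher expression in both complex culture media than in both woody-plant media. The difference is relative, and some members were abundant in the woody-plant media or low in the complex media. The genes were chosen by their measured expression in the same 4 libraries described here. A gene belonged to the set when the lower of its PDB and MPY values was at least 10 CPM (the count of a gene divided by all counts of its library and multiplied by 1000000), when that lower value was at least 3 times the higher of its WPGY and WPG values, and when PDB and MPY were less than 3-fold apart. A pair of gene models of the glycolytic enzyme glyceraldehyde-3-phosphate dehydrogenase met these limits, with ratios of 3.24 and 3.28, but was left out of the set by its definition. The contrast between the complex and the woody-plant media therefore made the set, and its size is given below as a description, with no test.

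The study grew mycelium of the SP1 strain of *T. borchii* in 4 liquid media and sequenced 1 mRNA library of each. The complex media were PDB, potato dextrose broth at 20 g/L, and MPY, with maltose at 35 g/L, peptone at 5 g/L and yeast extract at 5 g/L. The woody-plant media were WPGY, a mineral medium with glucose at 20 g/L and yeast extract at 5 g/L, and WPG, which had the same glucose and no yeast extract. All cultures were mycelium of this 1 strain, kept at 22 °C, static and in the dark, and no treatment other than the medium is given. According to the labels the PDB and MPY cultures were harvested at day 85 and the WPGY and WPG cultures at day 65, while the headers of the count files give day 85 for PDB, day 83 for MPY and day 64 for both woody-plant cultures. The kind of medium and the age of the culture thus cannot be told apart. With 1 library in each medium there was no replicate, so no p-value is given, and every interval is an exact 95% interval that covers counting error only.

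The libraries held 157335190 counts for PDB, 47969567 for MPY, 125457058 for WPGY and 116376579 for WPG. Every gene of the set was counted deeply, since the lowest count of any member was 1688 in PDB, 579 in MPY, 252 in WPGY and 232 in WPG. A histone gene, of a kind that every nucleated cell transcribes, was high in all of the libraries, at 2655 CPM in PDB, 2285 CPM in MPY, 2611 CPM in WPGY and 2636 CPM in WPG.

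A complex medium supplies amino acids, peptides, vitamins and mixed sugars from plant, yeast or protein digests, whereas a defined or semi-defined medium supplies chiefly inorganic salts and a known sugar. Filamentous fungi are known to adjust the transcription of uptake systems, of enzymes of nitrogen and carbon use and of oxidative enzymes to what the medium holds. Arginase hydrolyses arginine to ornithine and urea and so lets fungi use arginine as a nitrogen source, and cytochrome P450 enzymes are haem-containing monooxygenases that oxidise a wide range of small molecules. These are the functions of the only 2 members with a text annotation in the sources used here. The others are given by their protein ID in the Tubbor1 gene catalogue, and no sequence is printed because none was analysed here.

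The 68 genes took a share of the transcription effort, the percentage of all counts of a library, that was several times larger in the complex media. They held 3.24% of all counts in PDB (3.2377 to 3.2432%) and 3.11% in MPY (3.1079 to 3.1177%), against 0.484% in WPGY (0.48244 to 0.48487%) and 0.490% in WPG (0.4883 to 0.49083%). The share was 6.62-fold higher in PDB than in WPG and 6.36-fold higher in MPY than in WPG. The rule fixed the direction of this difference and a size of at least 3-fold. Few genes carried much of it. The 5 genes with the highest mean of PDB and MPY held 1.40% of all counts in PDB and 1.26% in MPY, against 0.190% in WPGY and 0.189% in WPG. These 5 genes made up 43.2% of the counts of the set in PDB, 40.5% in MPY, 39.4% in WPGY and 38.6% in WPG. Single genes took unequal parts of the set. Gene 1071111 made up 16.1% of the counts of the set in PDB and 19.8% in MPY, against 7.29% in WPGY and 7.30% in WPG. Gene 1075104 made up 6.01% in PDB and 5.78% in MPY, against 11.1% in WPGY and 10.9% in WPG.

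**Figure D1:**
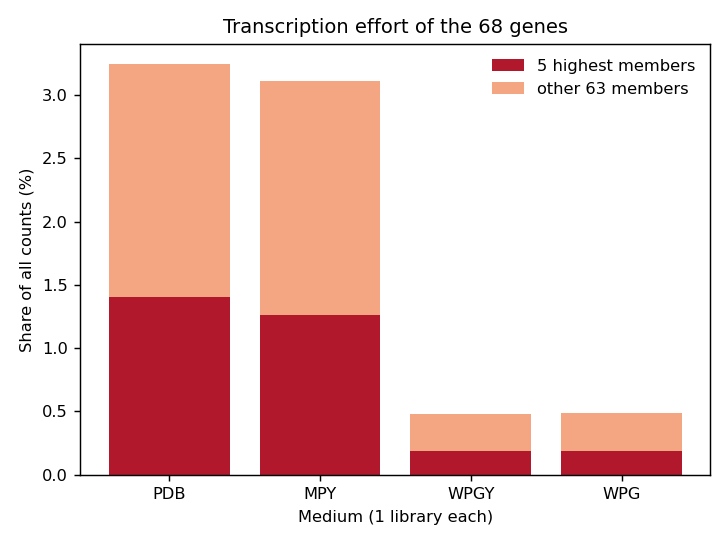
Percentage of all counts of a library (vertical axis) held by the 68 genes in each medium, 1 library each, split into the 5 genes with the highest mean of PDB and MPY (dark) and the other 63 (light). The stacked bars reach 3.24% in PDB and 3.11% in MPY, against 0.484% in WPGY and 0.490% in WPG.

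The median level of a member was 165 CPM in PDB and 171 CPM in MPY, against 34.2 CPM in WPGY and 36.6 CPM in WPG. Over the 6484 gene models of at least 10 CPM in both complex media the medians were 79.4 CPM in PDB and 73.7 CPM in MPY, against 74.8 CPM in WPGY and 75.4 CPM in WPG. The typical member lay above the typical expressed gene in the complex media and below it in the woody-plant media. The rule required the contrast between the media, so these levels and the places given next largely describe the selection. In the order of all genes of a library, the median place of a member was 1578.5 in PDB and 1474 in MPY, against 5173 in WPGY and 5078 in WPG. Among the 500 highest genes were 25 members in PDB and 22 in MPY, against 3 in WPGY and 3 in WPG. Levels within the set spanned a wide range, with 10.7 to 5205 CPM in PDB and 12.07 to 6159 CPM in MPY, against 2.01 to 535 CPM in WPGY and 1.99 to 533 CPM in WPG. At least 100 CPM was reached by 44 members in PDB and 41 in MPY, against 16 in WPGY and 15 in WPG. By the rule no fewer members could reach this level in the complex media. The share of all gene models that reach it was not counted, so these numbers describe the members only.

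**Figure D2:**
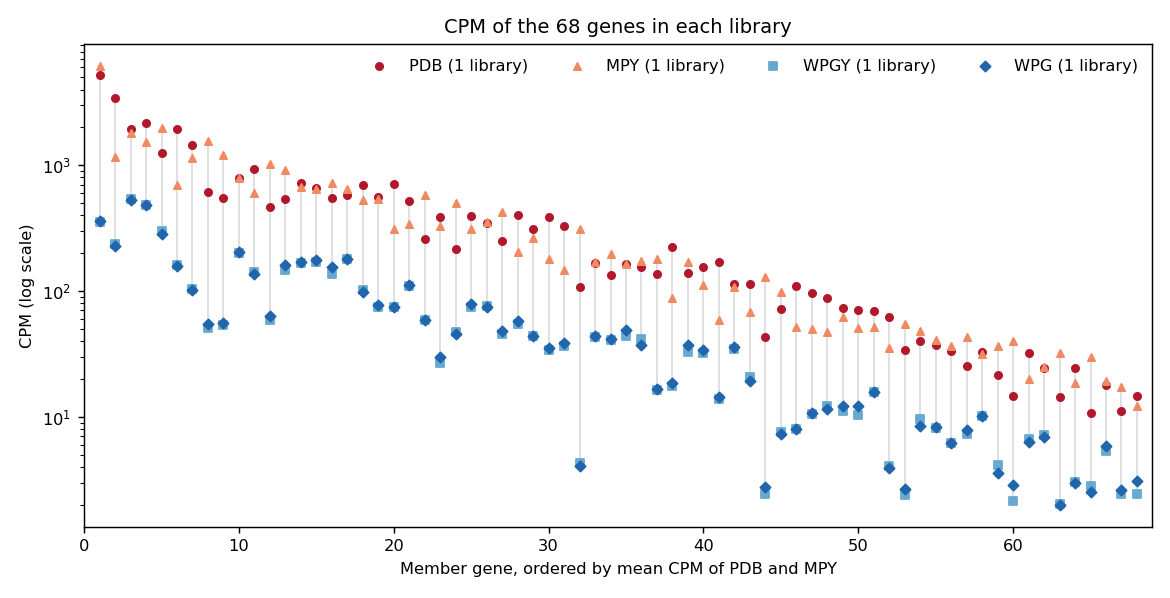
Level of each of the 68 genes in CPM (vertical axis, log scale) in the PDB, MPY, WPGY and WPG libraries, with the genes ordered along the horizontal axis by their mean in PDB and MPY. The points of WPGY and WPG nearly coincide for most genes, while those of PDB and MPY lie above them and are up to 2.999-fold apart.

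The size of the contrast was summarised by 1 ratio per gene, the lower of PDB and MPY over the higher of WPGY and WPG. Of the 6484 gene models of at least 10 CPM in both complex media, counted without the pair left out, 88 (1.36%) had a ratio of at least 3, and these are the 68 members and 20 genes that failed the limit between PDB and MPY. For single pairs of libraries the share of these gene models that passed the same 3-fold limit was 3.7% for PDB over WPGY, 3.62% for PDB over WPG, 4.26% for MPY over WPGY and 4.3% for MPY over WPG, and all 68 members passed each of them by definition. The 4 pairs share their libraries and are not independent. The median ratio of the members was 4.22 (range 3.01 to 25.4), and the median over the 6484 gene models was 0.846. A ratio under 4 was found in 29 members, while 24 reached 5 and 7 reached 10. The median member was 5.49-fold higher in PDB than in WPGY and 5.33-fold higher in PDB than in WPG. It was 5.02-fold higher in MPY than in WPGY and 4.80-fold higher in MPY than in WPG.

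The 3 members just inside the limit were 1120115, 1088127 and 1063108, with ratios of 3.02, 3.02 and 3.01. Gene 1120115 had 113.7 CPM in PDB and 108 CPM in MPY, against 34.6 CPM in WPGY and 35.8 CPM in WPG. The genes just outside were 974010, 1063974 and 986387, with ratios of 2.996, 2.98 and 2.96. Gene 974010 had 400.3 CPM in PDB and 556 CPM in MPY, against 133 CPM in WPGY and 134 CPM in WPG. Values on either side of the limit were alike, and for 5 members the counting interval of the ratio reached below 3.

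The 10 members with the highest mean CPM are given next, in an order that is not corrected for gene length. Gene 1071111 came before all others. It had 5205 CPM in PDB and 6159 CPM in MPY, against 353 CPM in WPGY and 358 CPM in WPG, a ratio of 14.6 (14.4 to 14.7). In the order of all genes by CPM it was at place 3 in PDB and place 4 in MPY, against place 455 in WPGY and place 429 in WPG. This gene alone took 0.520% of all counts in PDB and 0.616% in MPY, against 0.0353% in WPGY and 0.0358% in WPG. Its model lies on sequence 5 of the Tubbor1 assembly at positions 7371 to 8013, at the end of its sequence as the 1st of 100 models, and spans 643 bp. Counts were also taken per base of the gene model and rescaled to a common total, for a rough comparison of levels between genes. On this scale gene 1071111 was at place 2 in PDB and place 1 in MPY, against place 147 in WPGY and place 146 in WPG. This order holds only for the deposited counts and for model spans with introns. It is not the order of the authors' own normalised values, which were not used here, and another normalisation can give another order.

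Gene 1090643 followed, with 3455 CPM in PDB and 1156 CPM in MPY, against 236 CPM in WPGY and 229 CPM in WPG. It lay close to the limit between the complex media, since MPY was 0.335 of PDB. Gene 1075104 had 1949 CPM in PDB and 1801 CPM in MPY, against 535 CPM in WPGY and 533 CPM in WPG, and was the only member over 500 CPM in the woody-plant media. Its ratio of 3.37 was among the smaller ones of the set. Gene 1098806 had 2147 CPM in PDB and 1531 CPM in MPY, against 479 CPM in WPGY and 485 CPM in WPG. Its model on sequence 17 (positions 143760 to 144059) spans only 300 bp, and per length it was at place 3 in PDB and place 4 in MPY, against place 32 in both woody-plant media. It was the member with the highest level per length in WPGY and WPG, although its ratio was only 3.15.

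Gene 978449 had 1255 CPM in PDB and 1968 CPM in MPY, against 302 CPM in WPGY and 285 CPM in WPG. Gene 1076504 had 1934 CPM in PDB and 691 CPM in MPY, against 162 CPM in WPGY and 158 CPM in WPG. Both had a ratio just over 4 (4.15 for 978449 and 4.26 for 1076504) but leaned to different complex media. Gene 258187 had 1452 CPM in PDB and 1142 CPM in MPY, against 104 CPM in WPGY and 101 CPM in WPG, a ratio of 11.02 (10.8 to 11.2). Gene 1089302 had 608 CPM in PDB and 1555 CPM in MPY, against 51.1 CPM in WPGY and 54.9 CPM in WPG, a ratio of 11.1 (10.8 to 11.4). Gene 1135013 had 548 CPM in PDB and 1216 CPM in MPY, against 53.9 CPM in WPGY and 55.4 CPM in WPG, a ratio of 9.89. These 3 genes and 1071111 were the 4 members that were both among the 10 highest in mean CPM and among the 10 largest in ratio.

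Gene 1082990, annotated as arginase, completed the 10 highest members. It had 792 CPM in PDB and 797 CPM in MPY, against 199 CPM in WPGY and 204 CPM in WPG. The complex media differed by less than 1% (MPY over PDB 1.01), and the ratio to the woody-plant media was 3.87 (3.82 to 3.93). Its model lies on sequence 104 at positions 61237 to 62965. The level in WPGY, which contains yeast extract, was 0.974 of that in WPG, which does not. With 1 library of each, an effect of yeast extract on this gene was not tested.

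The largest ratios belonged in part to abundant genes given above and in part to genes with a few CPM in the woody-plant media. Gene 1071578 on sequence 7 (positions 62042 to 63508) had the largest, 25.4 (23.3 to 27.7), with 108 CPM in PDB and 309.8 CPM in MPY, against 4.26 CPM in WPGY and 4.04 CPM in WPG. Gene 1085572 had 42.9 CPM in PDB and 129 CPM in MPY, against 2.45 CPM in WPGY and 2.78 CPM in WPG, a ratio of 15.4 (13.8 to 17.3). Gene 200924 had 34.2 CPM in PDB and 54.4 CPM in MPY, against 2.37 CPM in WPGY and 2.68 CPM in WPG, a ratio of 12.8 (11.4 to 14.3). All 3 were higher in MPY than in PDB, and so were 5 of the 7 members with a ratio of at least 10. Of the 6108 gene models of at least 10 CPM in both complex media and under 3-fold apart, 42.4% were higher in MPY. With so few members, a link between ratio and medium was not tested. Gene 969369, one of these 7, was higher in PDB. It had 389 CPM in PDB and 330.2 CPM in MPY, against 26.7 CPM in WPGY and 29.9 CPM in WPG. Its ratio was 11.1. Gene 1073241 had 61.7 CPM in PDB and 35.0 CPM in MPY, against 4.09 CPM in WPGY and 3.94 CPM in WPG, a ratio of 8.55.

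Gene 981437, annotated as a cytochrome P450, had the ninth place among the ratios (9.59, interval 8.98 to 10.3). It had 72.1 CPM in PDB and 98.4 CPM in MPY, against 7.52 CPM in WPGY and 7.26 CPM in WPG. Its model lies on sequence 107 at positions 19667 to 21637. WPGY and WPG were close to each other for this gene, with a counting interval of WPGY over WPG that held 1 (0.942 to 1.14).

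The rule limited MPY and PDB to less than 3-fold apart but did not fix which was higher. The members were evenly split, with 34 higher in MPY and 34 higher in PDB, and the median MPY over PDB was 0.997. Of all 6108 gene models of at least 10 CPM in both that were under 3-fold apart, 2591 (42.4%) were higher in MPY and the median was 0.9305. A ratio of MPY over PDB of at least 2 was found in 10 members, against 4.26% of those 6108 gene models, and PDB was at least 2-fold higher in 8 members, against 5.6% of the gene models. The members had to be at least 3-fold higher in both media than in the woody-plant media. These shares were computed without that condition, so the numbers are given side by side only. Within 1.25-fold of each other were 23 members, 21 leaned to MPY by more and 24 to PDB. The median ratio to the woody-plant media was 5.18 (3.23 to 25.4) among the members that leaned to MPY, 4.19 (3.01 to 11.02) among those that leaned to PDB and 3.87 (3.02 to 14.6) among the rest. The counting interval of MPY over PDB held 1 for 7 members. This interval leaves out the spread between cultures and is narrow at these counts. The same share over all gene models was not counted.

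**Figure D3:**
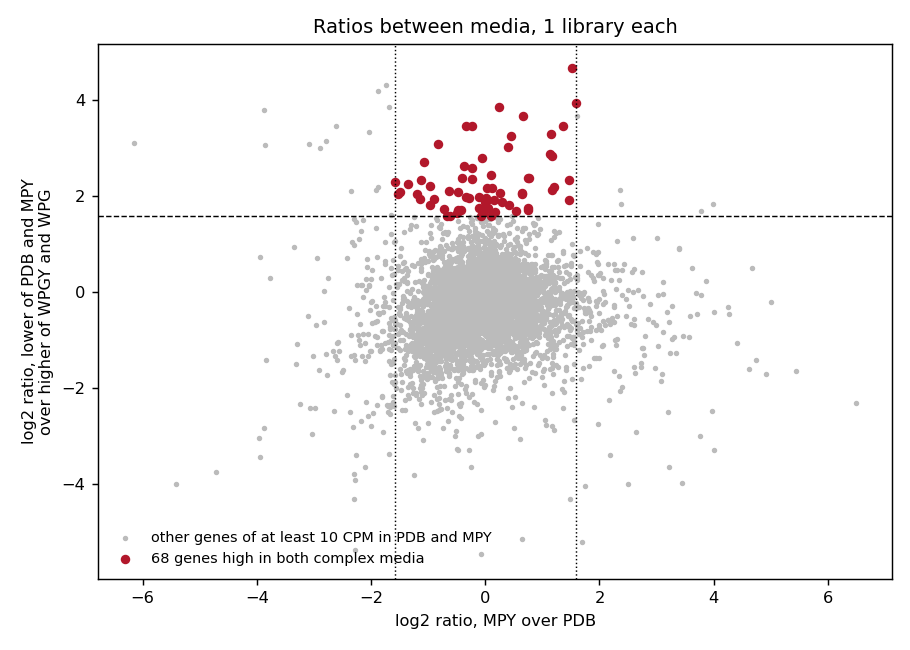
Each gene model of at least 10 CPM in both complex media, with the log2 ratio of MPY over PDB on the horizontal axis and the log2 ratio of the lower complex over the higher woody-plant medium on the vertical axis. The 68 genes (red) fill the field above the 3-fold line (dashed) and between the 3-fold limits (dotted), evenly to both sides, with 34 higher in MPY and 34 in PDB.

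At the MPY end, gene 1085572 had an MPY over PDB ratio of 2.999, gene 1071578 of 2.86 and gene 1070315 of 2.77. Gene 1070315 had 29.7 CPM in MPY and 10.7 CPM in PDB, with 2.82 CPM in WPGY and 2.52 CPM in WPG. It was the member with the lowest PDB level and entered the set just above the limit of 10 CPM. At the PDB end, the MPY over PDB ratio was 0.335 for gene 1090643, 0.347 for gene 1022502 and 0.357 for gene 1076504. Gene 1022502 had 59.2 CPM in MPY and 171 CPM in PDB, with 13.7 CPM in WPGY and 14.3 CPM in WPG.

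Yeast extract was present in MPY and WPGY and absent from PDB and WPG, so the members were also compared between the pair of woody-plant media, a ratio that the rule limited only through the higher of them. Most members were within 10% between the woody-plant media. The median WPGY over WPG was 0.981 (range 0.739 to 1.17), against 0.997 over all gene models of at least 10 CPM in both complex media. WPGY was higher for 24 of the 68 members, against 47.4% of the 6483 gene models with at least 100 counts in both woody-plant libraries, and WPG was higher for the other 44. A difference of over 10% was found in 14 members, against 9.59% of the same gene models, and the other 54 were within 10%. Of the 14, WPG was the higher in 10 and WPGY in 4.

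Most of these 14 were low in the woody-plant media, where differences of this size were more common among all genes, though less so than among the members. Of the 43 members at or under 50 CPM in both woody-plant media, a limit chosen after the values were seen, 13 were over 10% apart. Under the same limit it was 349 of the 2128 gene models (16.4%), a smaller share. The members were not matched in level to these gene models below the limit, and the reason for the difference was not tested. WPGY was higher for 15 of these 43 members, against 42.2% of the 2128. Gene 987369 had the lowest WPGY over WPG, with 2.12 CPM in WPGY and 2.87 CPM in WPG, a ratio of 0.739 (0.626 to 0.870). It had 39.9 CPM in MPY and 14.5 CPM in PDB. Gene 1175716 had 2.45 CPM in WPGY and 3.10 CPM in WPG, a ratio of 0.789. It was the lowest member in MPY, with 12.07 CPM in MPY and 14.7 CPM in PDB. At the other end, gene 1128726 had 4.16 CPM in WPGY and 3.56 CPM in WPG, a ratio of 1.17, and gene 1192016 had 9.64 CPM in WPGY and 8.46 CPM in WPG, a ratio of 1.14. Gene 1128726 had 36.3 CPM in MPY and 21.5 CPM in PDB, and gene 1192016 had 47.9 CPM in MPY and 40.2 CPM in PDB. Without a second library of either medium, whether differences of this size exceed the spread between cultures was not tested.

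**Figure D4:**
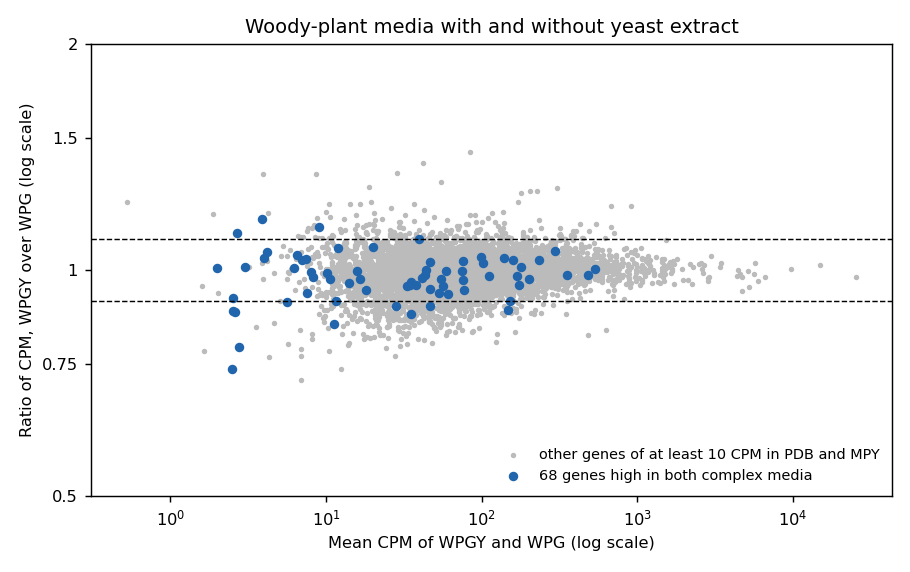
Ratio of WPGY over WPG (vertical axis, log scale) against the mean CPM of both (horizontal axis, log scale) for the 68 genes (blue) and the other gene models of at least 10 CPM in both complex media (grey). Dashed lines mark a difference of 10%, and 14 of the 68 genes lie beyond them, 10 of them higher in WPG.

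The remaining 36 members had between 11.1 and 941 CPM in PDB (median 165) and between 17.3 and 1017 CPM in MPY (median 169), against 2.01 to 169 CPM in WPGY (median 35.3) and 1.99 to 177 CPM in WPG (median 37.9). Their ratios ran from 3.02 to 8.09 with a median of 3.95. The genes given here from among them were chosen after their values were seen, to show the range. Gene 1102805 had 941 CPM in PDB and 604 CPM in MPY, against 141 CPM in WPGY and 136 CPM in WPG. Gene 1096023 leaned to MPY, with 464 CPM in PDB and 1017 CPM in MPY, against 58.5 CPM in WPGY and 62.9 CPM in WPG, a ratio of 7.38. Gene 974871 was the most even of the abundant ones, with 656 CPM in PDB and 652 CPM in MPY, against 169 CPM in WPGY and 177 CPM in WPG. Gene 1054879 had the largest ratio of these 36, 8.09, with 136 CPM in PDB and 179.8 CPM in MPY, against 16.3 CPM in WPGY and 16.8 CPM in WPG. Gene 1132467 had a ratio of 6.01, with 309 CPM in PDB and 264 CPM in MPY, against 43.8 CPM in WPGY and 43.9 CPM in WPG. Gene 1192746 kept a ratio of 5.42 at a low level, with 33.6 CPM in PDB and 36.3 CPM in MPY, against 6.21 CPM in WPGY and 6.18 CPM in WPG.

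Among features that the rule did not use, the genes were of ordinary length. The median span of a member, introns included, was 1512 bp (156 to 4726 bp), against 1653.5 bp for all gene models of at least 10 CPM in both complex media. Under 500 bp were 3 members (4.41%), against 3.22% of those gene models. Only 2 members (2.94%) overlapped another gene model, against 11.1% of those gene models, and these were 1102325 and 1088127, which overlap each other by 238 bp on sequence 186. Gene 1102325 had 579 CPM in PDB and 649 CPM in MPY, against 181 CPM in WPGY and 179 CPM in WPG. Gene 1088127 had 17.8 CPM in PDB and 19.1 CPM in MPY, against 5.34 CPM in WPGY and 5.89 CPM in WPG. Reads in the shared stretch could be counted for either, so the low values of 1088127 are uncertain.

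The members were spread over 57 of the 617 sequences of the assembly that carry a gene model. On 7 sequences lay 2 or more members, 18 in all. These 7 sequences carried between 24 and 104 gene models each. How many members would share a sequence without any grouping was not computed, so the count is a description. Sequence 33 carried the most, with 5 members among 40 gene models, within a stretch of 223079 bp. They were 969369, 1190613, 1121189, 1075646 and 1075649. Gene 1075649 was the highest of the 5 in PDB, with 711 CPM in PDB and 311 CPM in MPY, against 74.4 CPM in WPGY and 74.7 CPM in WPG. Gene 1190613 had 346 CPM in PDB and 352 CPM in MPY, against 76.6 CPM in WPGY and 74.6 CPM in WPG. Gene 1121189, the longest model of the set at 4726 bp, had 155 CPM in PDB and 172 CPM in MPY, against 41.1 CPM in WPGY and 37.4 CPM in WPG. Gene 1075646 was the lowest of them, with 24.3 CPM in PDB and 18.7 CPM in MPY, against 3.01 CPM in WPGY and 2.98 CPM in WPG. Of the 21 models on this sequence with at least 10 CPM in both complex media, 8 had a ratio of at least 2, against 3.50% of all such gene models. Of these 8, 5 were the members themselves, which have such a ratio by definition, and 3 were not. The sequence was singled out because it held the most members, so the number of such genes on it is a description.

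Other genes of sequence 33 had part of the pattern. Gene 1121158, near 969369, was far higher in PDB and failed the limit between the complex media, with 331 CPM in PDB and 22.5 CPM in MPY, against 1.55 CPM in WPGY and 1.62 CPM in WPG. Gene 1075644, the neighbour of 1075646, had 40.0 CPM in PDB and 75.2 CPM in MPY, against 17.6 CPM in WPGY and 16.1 CPM in WPG, a ratio of 2.28. Gene 1075609 had 55.4 CPM in PDB and 57.6 CPM in MPY, against 19.1 CPM in WPGY and 17.0 CPM in WPG, a ratio of 2.90. The members were interspersed with genes that did not share the pattern, such as 1075637, which had 133 CPM in PDB and 173 CPM in MPY, against 119.8 CPM in WPGY and 112 CPM in WPG.

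**Figure D5:**
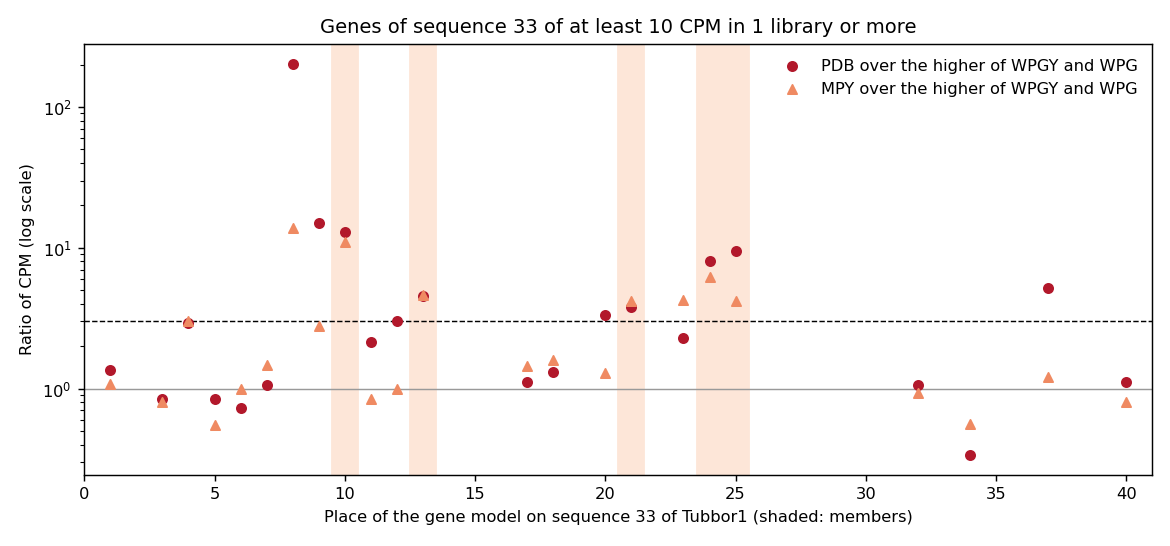
Ratio of PDB (circles) and of MPY (triangles) to the higher of WPGY and WPG (vertical axis, log scale) for the genes of sequence 33 of at least 10 CPM in 1 library or more, by place of the gene model along the sequence. The 5 members (shaded) lie above the 3-fold line (dashed) for both media, while most other genes lie around 1 or exceed the line in 1 of the media. Gene 1121158 exceeds it in both, at 203.6-fold for PDB and 13.9-fold for MPY.

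Members next to each other in the order of gene models were 6, in 3 pairs. The number to be met without any grouping was not computed here either. On sequence 33 the models of 1075646 and 1075649 are neighbours but lie 76306 bp apart. On sequence 93 only 184 bp separate the models of 831985 and 1125305. Gene 831985 had 73.4 CPM in PDB and 62.5 CPM in MPY, against 11.05 CPM in WPGY and 12.1 CPM in WPG. Gene 1125305 had 557 CPM in PDB and 536 CPM in MPY, against 74.5 CPM in WPGY and 76.9 CPM in WPG. The ratios of this pair were 5.15 for 831985 and 6.97 for 1125305, a contrast that membership required. MPY over PDB was 0.851 for 831985 and 0.962 for 1125305, both within 1.25-fold. The third pair was the overlapping pair on sequence 186.

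The neighbours of members that were not members themselves mostly lacked the pattern. The 69 of these with at least 10 CPM in both complex media had a median ratio of 0.936, against 0.842 for all such non-members. A ratio of at least 2 was found in 3 of them (4.35%), against 2.48% of all such non-members. They were 1075644 on sequence 33, 1189188 on sequence 4 and 960792 on sequence 1. Gene 1189188 lies between the members 961714 and 565902 and had 23.5 CPM in PDB and 38.5 CPM in MPY, against 11.4 CPM in WPGY and 11.6 CPM in WPG. Gene 961714 had 69.8 CPM in PDB and 51.9 CPM in MPY, against 15.7 CPM in WPGY and 15.8 CPM in WPG. Gene 565902 had 110.0 CPM in PDB and 52.1 CPM in MPY, against 7.93 CPM in WPGY and 7.97 CPM in WPG. Gene 960792, annotated as ribosomal protein L24e, is the neighbour of 1070315 and had 602 CPM in PDB and 743 CPM in MPY, against 261 CPM in WPGY and 251 CPM in WPG.

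Function could be examined for few members. The study's annotation table was held here for 827 gene models only, of which 459 had a text, and 4 members were among them. Apart from the arginase and the cytochrome P450, these were 1070315 and 1193053, which had no text. Gene 1193053 had 24.2 CPM in PDB and 24.95 CPM in MPY, against 7.13 CPM in WPGY and 6.93 CPM in WPG. Of the 438 gene models of the table with at least 10 CPM in both complex media, 19 had a ratio of at least 2, against 3.50% of all such gene models. The median ratio of the 438 was 0.837.

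Genes of this table were also grouped by words in their annotation text, so a group holds every gene whose text has one of its words, whatever its function. Of the 36 genes found by words for redox enzymes with at least 10 CPM in both complex media, 1 was a member and the median ratio was 0.894. A ratio of at least 2 was found in 6 of the 36, against 3.50% of all such gene models. The 5 that were not members were 1047945 (a fructosyl amino acid FAD-dependent oxidoreductase), 963532 (an NADH dehydrogenase), 1114840 (a thiol reductase), 981048 (a glutathione S-transferase) and 981017 (a glyoxalase and dioxygenase family protein). Gene 981017 had 1748 CPM in PDB and 803 CPM in MPY, against 374 CPM in WPGY and 388 CPM in WPG. Gene 1047945 came closest to the set, with 119 CPM in PDB and 115 CPM in MPY, against 41.0 CPM in WPGY and 41.0 CPM in WPG, a ratio of 2.81.

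No member was found by the words of the other groups. None of the 15 genes found by words for transporters had a ratio of 2 or more (median 0.754), and these included the copper chaperone 1101126 and the regulator 1047426 beside transporters proper. The same held for the 14 genes found by words for carbohydrate-active enzymes (median 0.709), but 7 of these have other functions by their text, among them a subunit of the vacuolar ATPase, a DNA glycosylase and a folylpolyglutamate synthase, so the median does not describe that class of enzymes. Those with a fitting text include the alpha-amylase 1114851, with 192 CPM in PDB and 43.4 CPM in MPY, against 79.3 CPM in WPGY and 78.4 CPM in WPG. None of the 6 genes found by words for central carbon metabolism (median 0.776), the 7 for chaperones (median 0.643) or the 3 for peptidases (median 0.573) reached a ratio of 2. The 6 hold aconitase, isocitrate dehydrogenase and fumarate reductase family genes, a mitochondrial carrier, a phosphatase and an enzyme of leucine synthesis. No gene of glycolysis or the glyoxylate cycle was among them, so these counts say nothing of those pathways, and the pair of glycolytic gene models left out of the set met its limits.

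The median of the 23 genes found by words for transcription factors was 1.09, and the only gene with a ratio of at least 2 was 896787 of the bZIP family, which was too unequal between PDB and MPY to be a member. Of the 17 genes found by words for translation, whose median was 0.791, only the ribosomal protein gene 960792 had a ratio of at least 2. The lone gene found by words for lipid metabolism, a component of the ERMES complex that tethers organelles, had a ratio of 0.626. The 2 genes of the cell wall and surface had a median of 0.567, and 0 genes were found by words for secondary metabolism. Of 5 cytochrome P450 genes, a group chosen after the values were seen, 2 had at least 10 CPM in both complex media and 981437 was the only one with a ratio of at least 2. Among 14 genes of the KOG class of amino acid metabolism, a group also chosen after the values were seen, the arginase gene was the only one with a ratio of at least 2, and the median of the group was 0.703. As the table covers a small part of the gene models, these counts describe the genes in it and not the whole set.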

How the data were processed

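Total RNA of mycelium from 4 cultures, 1 per medium, was sequenced as TruSeq libraries with paired-end reads. The authors checked reads with FastQC, removed adapters with Trimmomatic and aligned the reads by STAR on the Tubbor1 genome (strain Tbo3840), and featureCounts assigned them to gene models. The deposited files hold these raw counts per gene model, 1 library per file, and were used as deposited. The authors also name kallisto for normalised values, which were not used here. Strand and multi-mapping settings are not given in the sources used here, so genes with near-identical copies and overlapping genes are uncertain. The number of columns of per-sample values not used was 0.

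Counts were divided by the library total to give CPM, the rule was applied, and ratios of CPM were given exact 95% intervals (conditional binomial) and shares Clopper-Pearson intervals, for counting error only. For comparisons of levels between genes, counts were taken per base of the gene model, introns included, and rescaled to a common total. The members and gene lists were chosen with earlier results of these data known. Genes were named when they were among the 10 highest in mean of PDB and MPY, the 10 largest in ratio, the 3 nearest to the 3-fold limit on each side, the extremes of MPY over PDB (3 each) and of WPGY over WPG (2 each), annotated in a list, next to another member, or named by the study. A limit of 50 CPM, the cytochrome P450 and amino acid groups, sequence 33 and some genes outside this rule were chosen after the values were seen, as stated there. Alternatives were other scalings, limits and pseudocounts. Protein and promoter sequences were not analysed here. The software was scipy 1.17.1, pandas 2.3.3, numpy 2.4.6 and matplotlib 3.10.9 under Python 3.11.15.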

Additional observations from a re-analysis of the deposited data

How the results depend on the processing

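The number of genes depended mostly on the fold limit, with 193 genes at a 2-fold and 24 at a 5-fold limit in place of 68. It stayed within 1.5 times of 68 under the other settings. It was 87 with median-of-ratios scaling (67 of the 68 kept), 63 with totals that omit the 10 highest genes of each library, 91 with counts divided by gene span (66 kept), 68 with libraries thinned to the shallowest (66 kept), 92 with a minimum of 1 CPM, 57 with a minimum of 30 CPM, 88 with no limit between PDB and MPY, 50 with a 2-fold limit between them and 63 when the lower end of the interval had to reach 3. Median-of-ratios scaling moved the log2 of the median ratio of all expressed genes by 0.12, and division by span by 0.12. The median ratio of the members, 4.22, was 5.68 when the mean of the complex media was set over the mean of the woody-plant media. The median MPY over PDB, 0.997, was 1.02 with median-of-ratios scaling, with 35 members in place of 34 higher in MPY, so its side of 1 depends on the scaling.

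The share of counts held by the members became 4.44% in PDB and 4.35% in MPY, against 0.643% in WPGY and 0.651% in WPG, with counts divided by span. Without gene 1071111 it was 2.72% in PDB and 2.50% in MPY, against 0.448% in WPGY and 0.454% in WPG. The median WPGY over WPG, 0.981, was 0.988 with median-of-ratios scaling, 0.992 with counts divided by span and 0.982 with 1 added to each CPM, and a minimum of 100 counts removed no member. No paired analysis was possible because each medium had 1 library. For the same reason no library could be left out, and the spread between cultures is unknown.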

Other observations

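The 20 genes that met the 3-fold contrast but were 3-fold or more apart between PDB and MPY were 15 genes higher in PDB and 5 higher in MPY. Gene 1126885 was the most unequal of them, with 34.3 CPM in MPY and 2436 CPM in PDB, while the woody-plant media had 3.85 CPM in WPGY and 3.96 CPM in WPG. In the other direction, gene 980014 had 6539 CPM in MPY and 412 CPM in PDB, with 116 CPM in WPGY and 115 CPM in WPG. Both exceeded the highest woody-plant value at least 3-fold in their lower complex medium, so they share the direction of the set and differ from it in the balance of PDB and MPY.

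Gene 1070349, annotated as a parasitic phase-specific protein PSP-1, had 582.2 CPM in MPY and 1953 CPM in PDB, with 28.3 CPM in WPGY and 29.2 CPM in WPG, a ratio of 19.96 to the woody-plant media. The bZIP transcription factor gene 896787 had 572 CPM in MPY and 2105 CPM in PDB, with 126 CPM in WPGY and 125 CPM in WPG. PDB was 3.35-fold higher than MPY for gene 1070349 and 3.68-fold higher for gene 896787, so both fell outside the 3-fold limit between them. Genes 89788 and 89789, which lie on sequence 126, also missed it. Gene 89788 had 46.5 CPM in MPY and 149.8 CPM in PDB, with 3.21 CPM in WPGY and 3.18 CPM in WPG. Gene 89789 had 18.6 CPM in MPY and 75.7 CPM in PDB, with 1.43 CPM in WPGY and 1.84 CPM in WPG.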
